A study of Rattus norvegicus with 24 samples.

Results

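Liver gene expression was compared between rats that ate 30% sucrose and rats that ate 10% sucrose when dietary copper was adequate. The comparison used 12 of the 24 arrays of the study, 6 rats in each diet, taken by their diet labels, and covered all 18641 genes that could be measured. All animals were male Wistar rats, 6 months old at the start, which ate a purified diet for 12 weeks and were 9 months old at sampling. The 6 rats labelled High Cu/30% sucrose and the 6 rats labelled High Cu/10% sucrose both received 125 mg of copper per kg of diet. The 10% sucrose diet was the control diet of the study, and starch and dextrin made up the carbohydrate. The other 12 rats ate the same sucrose levels with less than 0.3 mg/kg copper, and they entered the estimate of the spread and a comparison of the sucrose difference between copper levels. RNA from frozen liver was labelled with a single dye and hybridised to Agilent arrays of 60-base probes, 1 array per rat. Nothing in the labels says that rats were pooled.

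Sucrose is split in the gut into glucose and fructose, and most of the fructose is taken up by the liver, where ketohexokinase phosphorylates it. Carbon from fructose can enter glycolysis, glucose output or fatty acid synthesis, and the transcription factors SREBP-1c and ChREBP raise lipogenic genes when sugar and insulin are high. A related factor, SREBP-2, controls the genes of cholesterol synthesis and is activated when sterols in the cell are low. The liver is also the main site of amino acid breakdown, urea formation, ketone body formation and bile acid synthesis. These processes supplied the gene lists described here.

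A level is given as log2 of the processed signal after subtraction of the 75th percentile of the array. Levels of different genes come from different probes and are not compared with each other. Between 61.4 and 73.4% of probes were well above background in the rats on 30% sucrose, and between 59.9 and 67.2% in the rats on 10% sucrose. Correlations between pairs of the 12 arrays ran from 0.967 to 0.991. Each slide carried 8 arrays. Of the rats on 30% sucrose, rats 1 and 2 were on slide 1 and rats 3 to 6 on slide 2, while all 6 rats on 10% sucrose were on slide 3. Diet and slide therefore cannot be told apart from the 12 rats alone. The only link between slides 2 and 3 within a diet was the low copper diet with 10% sucrose, with 4 rats on slide 2 and 2 rats on slide 3. A fit with slide as a block subtracts this same-diet slide difference from the diet difference on slides 2 and 3, so that its value rests on those 2 rats. The value from this fit (under the slide block) is given beside the plain value for the main genes named. The 7 hepatocyte markers (among them Alb, Ttr and Cps1) were all measured, with a mean level of 3.87 to 4.43 in the rats on 30% sucrose and 4.22 to 4.53 in the rats on 10% sucrose.

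With limma and an adjusted p under 0.05, 18.4% of the 18641 genes were called higher on 30% sucrose and 2.48% lower (3426 and 462 genes, 20.9% in all). These shares depended on how bright the genes were. Among the 4228 genes with a mean level under -4 over the 12 arrays compared, 38.2% were called higher and 0.662% lower. Among the 1473 genes at 4 and over, 0.611% were called higher and 3.73% lower. The median difference in the dimmest class was 0.62, and the slide difference within the low copper 10% sucrose diet had a median of 0.51 in the same class. Odorant and vomeronasal receptors, which the liver is not known to use, show the same: 268 of 378 were called higher, with a median difference of 0.92, a same-diet slide difference of 0.84 and a median of 0.08 under the slide block. The share of calls that were higher, 88.1%, was 64.7% after quantile normalization and 63% in the authors' table. Of the 12518 genes that were not bright, 26% were called higher and 1.75% lower. The results below therefore lead with bright genes, with a mean level of at least 0 and well above background on all 12 arrays.

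Of the 6123 bright genes, 167 were called higher (2.73%) and 243 lower (3.97%). The balance turned with the scaling: 175 were higher and 138 lower after quantile normalization, 126 and 434 with the median of detected probes at 0, and 191 and 197 in the authors' table. In the fit with slide as a block, 386 of these 410 genes (6.7% of the bright genes), or 94.1%, had the same sign. The share was 71.8% among the bright genes that were not called. Of the 410 genes, 286 (69.8%) had at least 0.5 times the size. That fit uses the 10% sucrose rats and the slide 2 rats on 30% sucrose again. The called genes were chosen for their difference in the same rats. A larger share with the same sign was therefore built in, and nothing is read from it. No gene passed the limma threshold under the slide block, and 758 genes (4.07%) then had an unadjusted p under 0.05. The number of bright genes called higher fell to 92 without rat 1 and to 99 without rat 5 of the 30% sucrose diet. The number called lower fell to 121 without rat 5 and to 159 without rat 6 of the 30% sucrose diet, and to 156 without rat 1 and 132 without rat 2 of the 10% sucrose diet. The diets did not overlap in 144 bright genes (2.35%), with 79 higher (1.29%) and 65 lower (1.06%), against 11.9% higher and 0.547% lower among all genes. Of these, 57 were called, had the same sign under the slide block and kept at least 0.5 times the size: 22 higher and 35 lower.

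Bright genes of cholesterol synthesis were among those that rose on 30% sucrose. Of the 26 measured genes of that list, 6 were called higher (23.1%) and 0 lower, against 18.4 and 2.48% of all genes, so that the share over the whole list was near that of all genes. Of its 20 bright members 5 were called higher, against 2.73% of bright genes. A difference above 0 was found in 23 of the 26. The list median was 0.42, and 0.42 under the slide block, against 0.07 and -0.03 over all genes. The same-diet slide difference of the list had a median of -0.10. The members called included the enzymes Sqle, Idi1, Cyp51, Acat3 and Mvd.

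Sqle, squalene epoxidase, lay between 0.65 and 2.38 (median 1.66) on 30% sucrose and between -0.34 and 1.03 (median 0.58) on 10% sucrose, with rat 1 of the 30% sucrose diet inside the range of the other diet. Its probe is at chr7:96111693-96111752 of rn4 on the plus strand. It differed by 1.17 ± 0.40 (SE, n = 6 per diet), or 2.24-fold, with a limma adjusted p of 0.039, and by 1.58 under the slide block. Idi1, which interconverts the 5-carbon building blocks of the pathway, differed by 0.85 ± 0.27 (0.88 under the slide block), with 5 of 6 rats on 30% sucrose above all rats on 10% sucrose.

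Cyp51, lanosterol demethylase, lay between 1.94 and 2.44 on 30% sucrose and between 1.16 and 1.61 on 10% sucrose, without overlap, and differed by 0.74 ± 0.25 (limma adjusted p = 0.038), or 0.83 under the slide block. Acat3, named Acat2 in RefSeq, makes acetoacetyl-CoA in the cytosol. It differed by 0.84 ± 0.29 (limma adjusted p = 0.045), and by 0.41 under the slide block. Mvd, mevalonate diphosphate decarboxylase, was not bright. It ranged from -0.19 to 0.54 on 30% sucrose and from -1.07 to -0.29 on 10% sucrose, and differed by 0.76 ± 0.27 (limma adjusted p = 0.045), or 0.94 under the slide block. None of these 5 enzymes kept its call without each of the 12 rats in turn. The count of members called fell to 1 without rat 5 of the 30% sucrose diet and to 1 without rat 1 or rat 6 of the 10% sucrose diet. It fell to 2 without rat 6 of the 30% sucrose diet, to 3 without rat 1 or 2 of that diet or rat 5 of the 10% sucrose diet, and was 4 or 5 without each of the others. It was 4 after quantile normalization, 3 after normexp background correction and 5 in the authors' table.

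The promoters of 4 of these genes are in the RefSeq table used here (build GRCr8), and their 250 bases before the transcription start are shown because the genes moved together. Capitals mark the CCAAT box, the site of the factor NF-Y that works beside SREBP at sterol genes (CCAAT, or ATTGG on the other strand), and the core of the sterol regulatory element (CACCCCA, on either strand).
Idi1 promoter, chr17:66547525-66547774, minus strand: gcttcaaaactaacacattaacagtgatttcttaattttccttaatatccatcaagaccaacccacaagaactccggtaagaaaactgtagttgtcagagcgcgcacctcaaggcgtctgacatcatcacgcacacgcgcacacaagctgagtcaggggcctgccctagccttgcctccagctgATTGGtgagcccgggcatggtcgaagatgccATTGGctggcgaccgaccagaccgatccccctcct
Mvd promoter, chr19:67414975-67415224, minus strand: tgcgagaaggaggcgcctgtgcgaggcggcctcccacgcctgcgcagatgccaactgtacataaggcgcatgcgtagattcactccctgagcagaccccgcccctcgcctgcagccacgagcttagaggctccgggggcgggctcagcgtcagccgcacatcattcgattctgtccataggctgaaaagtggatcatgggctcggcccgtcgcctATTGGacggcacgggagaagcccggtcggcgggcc
Acat3 promoter, chr1:50100590-50100839, plus strand: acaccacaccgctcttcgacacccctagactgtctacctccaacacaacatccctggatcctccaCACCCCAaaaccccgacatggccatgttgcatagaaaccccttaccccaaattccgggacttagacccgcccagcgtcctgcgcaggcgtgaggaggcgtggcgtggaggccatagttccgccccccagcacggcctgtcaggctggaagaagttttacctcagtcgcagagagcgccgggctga
Cyp51 promoter, chr4:30991443-30991692, plus strand: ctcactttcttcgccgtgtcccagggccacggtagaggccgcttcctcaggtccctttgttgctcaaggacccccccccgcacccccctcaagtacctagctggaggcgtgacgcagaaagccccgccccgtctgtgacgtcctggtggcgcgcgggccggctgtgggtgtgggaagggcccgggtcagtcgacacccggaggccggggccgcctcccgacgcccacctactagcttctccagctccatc
CCAAT was found on either strand in 15 of the 18 promoters of the cholesterol list that the table holds (83.3%), against 35.9% of the promoters of the genes tested. CACCCCA was found in 3 of these 18 (16.7%), against 5.92%. In the amino acid list, whose called members were mostly lower, CACCCCA was found in 7 of 32 promoters (21.9%) and CCAAT in 17 (53.1%). Of the 4 printed promoters, Idi1 and Mvd hold CCAAT, Acat3 holds CACCCCA, and these letters are not in the Cyp51 window. A match is a description of the sequence and not evidence of binding.

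Among other bright genes that rose, Unc5cl, Ext1, Gal3st4, Apobec1 and Itgam had no overlap between the diets. Unc5cl, a death-domain protein linked to NF-kappaB signalling, lay between 1.12 and 2.30 (median 1.77) on 30% sucrose and between -0.14 and 0.68 (median 0.40) on 10% sucrose. It differed by 1.37 ± 0.30, or 2.59-fold (limma adjusted p = 0.0032), and by 1.34 under the slide block. Ext1, a polymerase of heparan sulfate chains, ranged from 0.34 to 1.39 on 30% sucrose and from -0.21 to 0.23 on 10% sucrose. It differed by 0.69 ± 0.16 (limma adjusted p = 0.0051), or 0.60 under the slide block, and rat 6 of the 30% sucrose diet stood apart at 1.39. Gal3st4, a sulfotransferase of sugar chains, differed by 0.85 ± 0.20 (limma adjusted p = 0.0053), and by 0.61 under the slide block.

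Apobec1, the enzyme that edits apolipoprotein B mRNA, ranged from 0.19 to 1.24 on 30% sucrose and from -0.47 to 0.05 on 10% sucrose. It differed by 0.89 ± 0.28 (limma adjusted p = 0.026), or 0.92 under the slide block, and its adjusted p rose to as much as 0.071 without rat 1 or rat 5 of the 30% sucrose diet or rat 3 of the 10% sucrose diet. Of 24 genes of the growth hormone and insulin list, 1 was called higher (4.17%) and 0 lower, against 18.4 and 2.48% of all genes. Of its 9 bright members 1 was called higher and 0 lower, against 2.73 and 3.97% of bright genes. The gene called was Igfbp1, an insulin-repressed binding protein of insulin-like growth factors. It lay between 0.96 and 2.27 (median 1.74) on 30% sucrose and between -0.20 and 1.28 (median 0.30) on 10% sucrose, and differed by 1.24 ± 0.35 (limma adjusted p = 0.015). The call held without each of the 12 rats, and the difference was 0.96 under the slide block. Igf1 itself differed by -0.05 ± 0.11, with a 95% interval from -0.29 to 0.18.

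Itgam, an integrin of neutrophils and macrophages, ranged from 0.05 to 1.11 on 30% sucrose and from -0.93 to -0.07 on 10% sucrose, and differed by 0.87 ± 0.22 (limma adjusted p = 0.0072). The slide-block difference was 0.46. Of 5 measured neutrophil markers 4 were called higher, where 26% of genes that are not bright and 38.2% of the dimmest class were. Their median difference was 1.90, or 1.499 under the slide block, with a same-diet slide difference of 0.80. Their mean level ran from -3.80 to -0.82 on 30% sucrose and from -5.16 to -4.54 on 10% sucrose. A wider list of 12 neutrophil genes, Itgam among them, had a median of 1.02, or 0.48 under the slide block. The same-diet slide difference of that list was 0.61. Of 6 macrophage markers 1 was called higher, with a mean level of -0.69 to 0.58 against -1.39 to -0.27. The median difference of the macrophage markers was 0.39, and -0.36 under the slide block, with a same-diet slide difference of 0.84. In bulk liver more cells of a type and more RNA per cell cannot be told apart. The part of these cells in the Itgam difference was not tested. Rat 5 of the 30% sucrose diet had the highest mean level in that diet for 7 of the 10 marker lists measured.

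**Figure D1:**
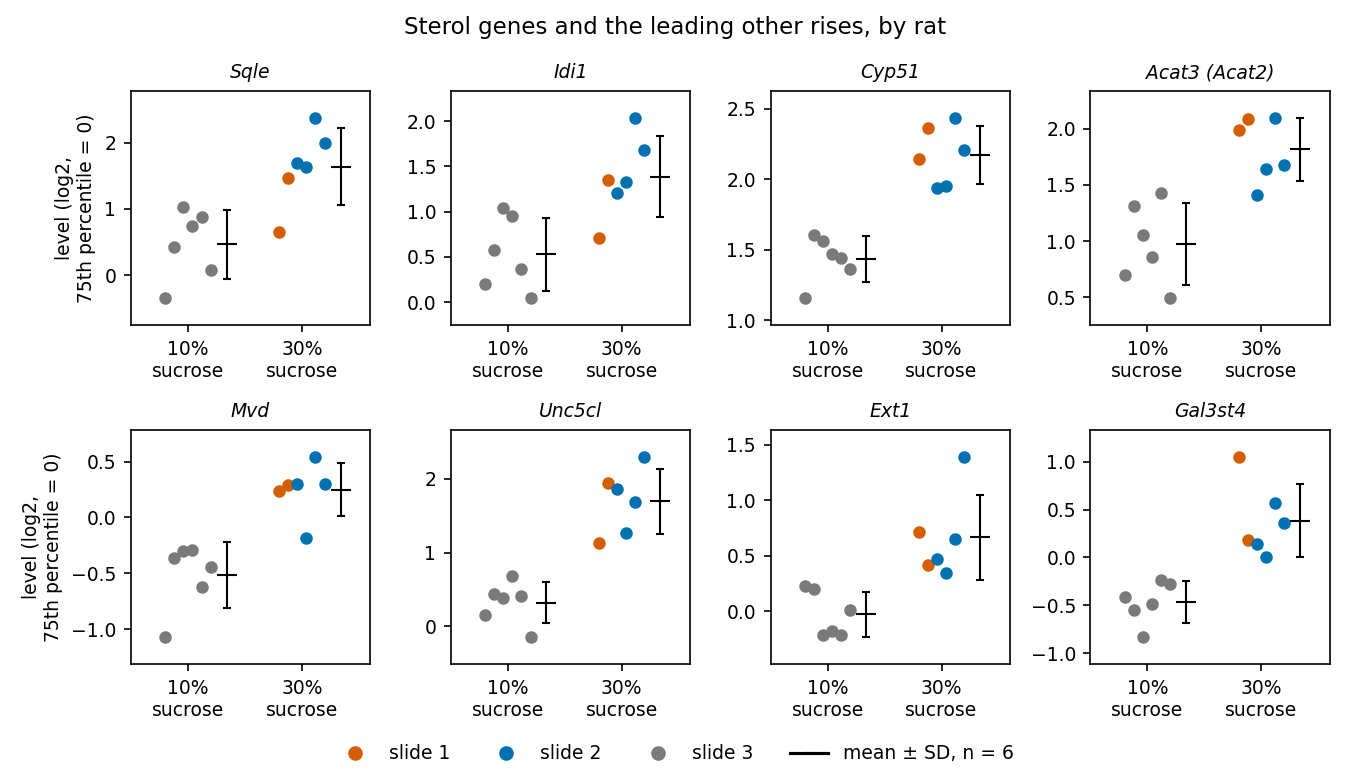
Level of 8 genes in each rat (log2, 75th percentile of the array = 0) on 10% and 30% sucrose, with points coloured by slide and bars for the mean ± SD of 6 rats. Cyp51, Mvd, Unc5cl, Ext1 and Gal3st4 have no overlap between the diets, while at least 1 rat overlaps in Sqle, Idi1 and Acat3.

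Many genes of amino acid breakdown and the urea cycle fell on 30% sucrose. Of the 42 measured genes of that list, 14 were called lower (33.3%) and 1 higher, against 2.48 and 18.4% of all genes. Of the 37 bright members 13 were called lower and 0 higher, against 3.97 and 2.73% of bright genes. A difference below 0 was found in 37 of the 42. The list median was -0.36, and -0.37 under the slide block, and the same-diet slide difference had a median of -0.03. Among 28 hepatocyte genes of another list, 24 had a difference below 0 and 1 was called lower, with a median of -0.16, or -0.11 under the slide block. Neutrophil and erythroid lists had medians of 1.02 each, or 0.48 and 0.92 under the slide block. The part of such shifts in the amino acid list was not tested. The number called lower was 11 to 16 when single rats were left out, 12 after quantile normalization, 11 after normexp background correction and 12 in the authors' table. With slide as a random block over the 12 arrays it was 12. With only rats 1 and 2 of the 30% sucrose diet, the rats on slide 1, the list median was -0.15 and 1 member was called lower.

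Glutamate handling was represented by several members. Glud1, glutamate dehydrogenase, lay between 5.55 and 5.94 (median 5.69) on 30% sucrose and between 6.02 and 6.38 (median 6.13) on 10% sucrose. The diets did not overlap, and the difference was -0.45 ± 0.12 (limma adjusted p = 0.0094), or -0.51 under the slide block. Gls2, the liver glutaminase, differed by -0.37 ± 0.10 (limma adjusted p = 0.011; -0.32 under the slide block), with 5 of 6 rats on 30% sucrose below all rats on 10% sucrose. Oat, ornithine aminotransferase, ranged from 2.19 to 3.52 on 30% sucrose and from 3.45 to 4.05 on 10% sucrose, and differed by -0.87 ± 0.22 (limma adjusted p = 0.0085), or -1.06 under the slide block. Nags, which makes the activator of the first urea cycle enzyme, differed by -0.57 ± 0.14 (limma adjusted p = 0.0071), and by -0.61 under the slide block. Gpt, alanine aminotransferase, differed by -0.66 ± 0.19, and its limma adjusted p of 0.017 rose to 0.053 without rat 5 of the 30% sucrose diet. Its slide-block difference was -0.69.

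Some enzymes of tryptophan, histidine and branched-chain amino acid breakdown were called lower, and others were not. Kmo and Haao are enzymes of the kynurenine pathway, which turns tryptophan into NAD precursors. Haao lay between 1.81 and 2.76 (median 2.07) on 30% sucrose and between 2.52 and 3.33 (median 2.97) on 10% sucrose, with rat 2 of the 30% sucrose diet inside the range of the other diet. It differed by -0.72 ± 0.18 (limma adjusted p = 0.0059), and Kmo by -0.42 ± 0.11 (limma adjusted p = 0.010), with -0.59 and -0.35 under the slide block. Tdo2 and Kynu, which act in the same pathway, were not called, at -0.23 ± 0.19 and -0.45 ± 0.24. Hal, histidine ammonia-lyase, ranged from 4.45 to 5.11 on 30% sucrose and from 5.17 to 5.61 on 10% sucrose, and differed by -0.67 ± 0.20 (limma adjusted p = 0.020), or -0.76 under the slide block. Uroc1, urocanate hydratase of the next step, was not called, at -0.32 ± 0.16. Ivd, the isovaleryl-CoA dehydrogenase of leucine breakdown, differed by -0.54 ± 0.13 (limma adjusted p = 0.0062), and by -0.66 under the slide block. Of the branched-chain keto acid dehydrogenase, Bckdhb differed by -0.34 ± 0.12 (limma adjusted p = 0.049, with the call lost without any 1 of 9 rats), and Bckdha was not called, at -0.19 ± 0.12. Bcat2, a branched-chain aminotransferase, was the 1 member of the list called higher, at 0.40 ± 0.13 (limma adjusted p = 0.030, with the call lost without any 1 of 4 rats), or 0.16 under the slide block.

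Agxt, which converts glyoxylate to glycine, had no overlap and differed by -0.61 ± 0.16 (limma adjusted p = 0.0083). Its slide-block difference was -0.16, and the same-diet slide difference was -0.42. The methyl group enzymes Gnmt and Bhmt differed by -0.45 ± 0.16 and -0.42 ± 0.15 (limma adjusted p = 0.042 and 0.046), and each lost its call without any 1 of 8 of the 12 rats. Slc25a13, the aspartate and glutamate carrier of mitochondria, is not on the list and was among the 35 bright genes that passed the stricter rule downwards. It lay between 1.35 and 1.81 on 30% sucrose and between 1.88 and 2.14 on 10% sucrose, and differed by -0.53 ± 0.11 (limma adjusted p = 0.0026). The slide-block difference was -0.37.

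**Figure D2:**
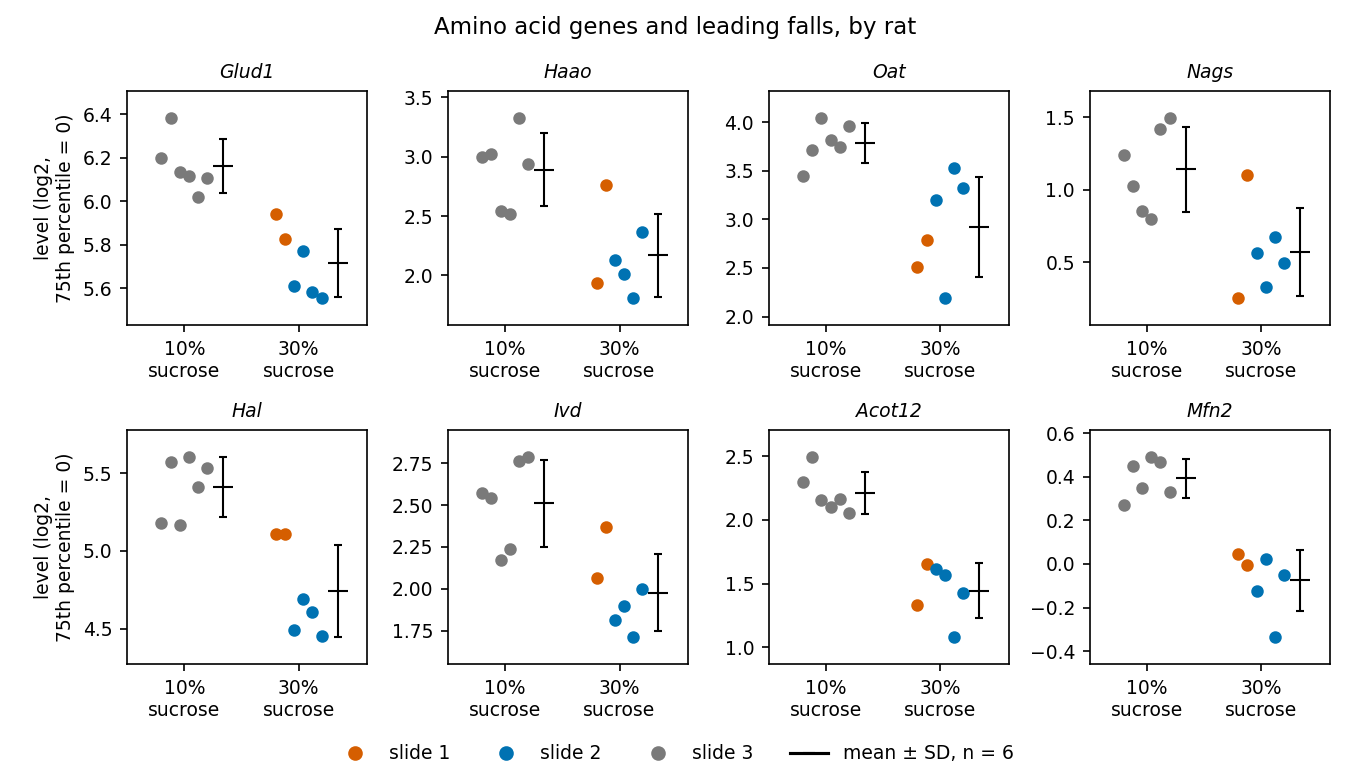
Level of 8 genes in each rat (log2, 75th percentile of the array = 0) on 10% and 30% sucrose, with points coloured by slide and bars for the mean ± SD of 6 rats. Glud1, Hal, Acot12 and Mfn2 have no overlap between the diets, while 1 rat on 30% sucrose lies within the range of the 10% sucrose rats in Haao, Oat, Nags and Ivd.

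Several mitochondrial and ketone body genes fell on 30% sucrose. Of 38 genes of fatty acid oxidation, 6 were called lower (15.8%) and 0 higher, against 2.48 and 18.4% of all genes and 3.97% lower among bright genes. A difference below 0 was found in 37 of the 38. The list median was -0.34, and -0.21 under the slide block. The count fell to 1 without rat 5 of the 30% sucrose diet, to 3 without rat 1 of the 10% sucrose diet, and was 4 to 7 without each of the others. It was 2 after quantile normalization and 1 in the authors' table. Acot12, a cytosolic acetyl-CoA hydrolase, kept its call without each rat: it lay between 1.08 and 1.65 (median 1.49) on 30% sucrose and between 2.05 and 2.50 (median 2.16) on 10% sucrose. It differed by -0.77 ± 0.15, or 1.70-fold lower (limma adjusted p = 0.0019), and by -0.79 under the slide block, with a same-diet slide difference of 0.00.

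Acat1, mitochondrial acetoacetyl-CoA thiolase of ketone body and isoleucine metabolism, differed by -0.69 ± 0.20 without overlap (limma adjusted p = 0.019, and 0.057 without rat 5 of the 30% sucrose diet), or -0.48 under the slide block. Bdh1, which converts acetoacetate to 3-hydroxybutyrate, ranged from 2.71 to 3.15 on 30% sucrose and from 3.08 to 3.81 on 10% sucrose. It differed by -0.53 ± 0.17 (limma adjusted p = 0.027), and by -0.18 under the slide block, and its call was lost without any 1 of 5 rats. Slc25a20, the carnitine carrier, differed by -0.35 ± 0.11 without overlap (limma adjusted p = 0.020), and its adjusted p was 0.056 without rat 5 of the 30% sucrose diet. Cpt1a, the entry step of the pathway, was not called, at -0.46 ± 0.26 with a 95% interval from -1.01 to 0.08.

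Mfn2, a protein of mitochondrial fusion, lay between -0.34 and 0.05 (median -0.03) on 30% sucrose and between 0.27 and 0.49 (median 0.40) on 10% sucrose. It differed by -0.47 ± 0.10 (limma adjusted p = 0.0021), and by -0.43 under the slide block. Pc, pyruvate carboxylase, which feeds glucose synthesis and the citric acid cycle, differed by -0.43 ± 0.10 without overlap (limma adjusted p = 0.0054), and by -0.22 under the slide block. Of 81 subunits of the respiratory chain, 4 were called lower (4.94%) and 2 higher, against 2.48 and 18.4% of all genes. Of the 75 bright subunits 3 were called lower and 0 higher, against 3.97 and 2.73% of bright genes. The share called lower was thus near that of bright genes. The median of the 81 subunits was -0.13. The number called lower was 0 without rat 3 of the 30% or rat 2 of the 10% sucrose diet, 1 without rat 5 of the 30% or rat 1 of the 10% sucrose diet, 2 without rat 4 of the 10% sucrose diet, 8 without rat 2 of the 30% sucrose diet and 7 without rat 3 or rat 6 of the 10% sucrose diet. Of 81 cytosolic ribosomal proteins 0 were called in limma and 0 had an unadjusted p under 0.05, and their median was 0.00.

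Some genes of bile acid synthesis fell on 30% sucrose. Of 20 measured genes of that list, 4 were called lower (20%) and 0 higher, against 2.48 and 18.4% of all genes and 3.97% lower among bright genes, with a median of -0.23, or -0.25 under the slide block. Hsd3b7, an early enzyme of the pathway, lay between -0.35 and 0.64 (median 0.23) on 30% sucrose and between 0.59 and 1.64 (median 1.02) on 10% sucrose, with 4 of 6 rats below all rats on 10% sucrose. It differed by -0.87 ± 0.21 (limma adjusted p = 0.0050), and by -0.51 under the slide block. Baat, which joins bile acids to taurine or glycine, differed by -0.40 ± 0.10 (limma adjusted p = 0.0068), and by -0.24 under the slide block. Cyp8b1, the sterol 12-alpha-hydroxylase that sets the amount of cholic acid, ranged from 0.28 to 1.53 on 30% sucrose and from 1.66 to 3.51 on 10% sucrose. It differed by -1.35 ± 0.36 (limma adjusted p = 0.010), and by -0.26 under the slide block, with a same-diet slide difference of -1.13. Acox2, the oxidase that shortens the bile acid side chain, differed by -0.86 ± 0.30 (limma adjusted p = 0.041), with rat 2 of the 10% sucrose diet apart at 3.37, and its call was lost without any 1 of 7 rats. Cyp7a1, the rate-limiting enzyme, was well above background on 5 of 6 arrays of the 30% sucrose diet and varied from -5.35 to -1.31 on 30% sucrose and from -4.80 to -0.68 on 10% sucrose, and its difference of 0.37 had a 95% interval from -1.26 to 2.0.

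Some drug metabolising cytochrome P450 genes fell on 30% sucrose. That list holds enzymes, their redox partners and the regulators Nr1i2, Nr1i3 and Ahr. Of its 38 measured genes, 6 were called lower (15.8%) and 3 higher (7.89%), against 2.48 and 18.4% of all genes. Of the 30 bright members 6 were called lower and 2 higher, against 3.97 and 2.73% of bright genes. The list median was -0.25, or -0.43 under the slide block. The number called lower was 2 after quantile normalization, 2 in the authors' table, and 2 to 4 without any 1 of 10 of the 12 rats, 6 without rat 4 of the 10% sucrose diet and 9 without rat 2 of the 30% sucrose diet. The Cyp2d genes, a cluster on chromosome 7 whose human counterpart handles many drugs, gave 3 of the falls. As they are close relatives, the first 30 of the 60 bases of each probe are shown, with positions of the whole probe in rn4.
Cyp2d2 probe, chr7:120798606-120798665, minus strand: cgatttgagtatgaggaccctttcttcaac
Cyp2d3 probe, chr7:120781308-120781367, minus strand: cctcgatccttacaccctcctgaacaaggc
Cyp2d4 probe, chr7:120743218-120743277, minus strand: gcgctttgcagacattctccctcttggtgt
Laid over each other without gaps at the best offset, pairs of whole probes matched at 20 to 22 of 56 to 58 bases. The probes were not compared with the transcripts of the related genes. Whether each probe reads only its own gene was therefore not tested. Cyp2d3 lay between 1.62 and 2.85 (median 2.28) on 30% sucrose and between 2.62 and 3.34 (median 3.20) on 10% sucrose. It differed by -0.80 ± 0.20 (limma adjusted p = 0.0062), and by -0.72 under the slide block. Cyp2d4 differed by -0.58 ± 0.16 (limma adjusted p = 0.014; -0.50 under the slide block), with 5 of 6 rats on 30% sucrose below all rats on 10% sucrose. Cyp2d2 differed by -0.72 ± 0.24 (limma adjusted p = 0.038), and its call was lost without any 1 of 8 rats. Cyp2c6v1 moved the other way, by 0.52 ± 0.18 (limma adjusted p = 0.039), and its call was lost without any 1 of 7 rats.

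A few genes that act on stored fat were called lower. Of 20 genes of lipid droplets and triglyceride turnover, 3 were called lower (15%) and 2 higher (10%), against 2.48 and 18.4% of all genes. Of the 11 bright members 2 were called lower and 0 higher, against 3.97 and 2.73% of bright genes. The list median was -0.24, or -0.23 under the slide block. The number called lower was 0 without rat 1 or rat 5 of the 30% or rat 1 or rat 5 of the 10% sucrose diet, and 1 without rat 2 or rat 6 of the 10% sucrose diet. It was 2 without rat 2 or rat 6 of the 30% or rat 3 or rat 4 of the 10% sucrose diet. G0s2, the inhibitor of the triglyceride lipase ATGL, ranged from 6.37 to 7.31 (median 6.73) on 30% sucrose and from 7.62 to 8.11 (median 7.72) on 10% sucrose, without overlap. It differed by -0.93 ± 0.33 with a limma adjusted p of 0.0498, and the call was lost without any 1 of 11 rats. Cidec, a protein of large fat droplets, and Mgll, monoglyceride lipase, differed by -0.58 ± 0.19 and -0.63 ± 0.21 (limma adjusted p = 0.032 and 0.036), and their calls were lost without any 1 of 5 and of 6 rats. Agpat6, named Gpat4 in RefSeq, an acyltransferase of the first step of triglyceride synthesis, ranged from -0.05 to 0.76 on 30% sucrose and from 0.84 to 1.15 on 10% sucrose. It differed by -0.67 ± 0.17 (limma adjusted p = 0.0062), kept its call without each rat, and differed by -0.46 under the slide block.

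Of 26 genes of lipogenesis, 1 was called higher (3.85%) and 0 lower, against 18.4 and 2.48% of all genes. Of the 18 bright members 0 were called in either direction, against 2.73% higher and 3.97% lower among bright genes. The list median was -0.03. The member called was Aacs, acetoacetyl-CoA synthetase, which uses ketone bodies for lipid synthesis. Aacs was not bright, and 26% of genes that are not bright were called higher. It ranged from -3.06 to -1.87 on 30% sucrose and from -5.66 to -3.68 on 10% sucrose, and differed by 1.80 ± 0.59 (limma adjusted p = 0.034), with no call without any 1 of 5 rats. Fasn, fatty acid synthase, varied from 3.47 to 6.46 on 30% sucrose and from 3.01 to 4.95 on 10% sucrose, and its difference of 0.54 had a 95% interval from -0.51 to 1.59. Acly, which supplies its acetyl-CoA, differed by 0.40 (95% interval from -0.37 to 1.16). Scd1, named Scd in RefSeq, the stearoyl-CoA desaturase, differed by -0.22 (95% interval from -0.94 to 0.50). Their regulators Srebf1 and Mlxipl, which encode SREBP-1 and ChREBP, differed by -0.11 (from -0.53 to 0.31) and -0.03 (from -0.35 to 0.28).

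Sugar handling genes gave 2 calls higher and 2 lower among 33 (6.06% each), against 18.4 and 2.48% of all genes. Of the 25 bright members 0 were called higher and 1 lower, against 2.73 and 3.97% of bright genes. The list median was -0.16. Khk, ketohexokinase, lay between 7.15 and 7.94 on 30% sucrose and between 7.24 and 7.77 on 10% sucrose, and its difference of -0.05 had a 95% interval from -0.33 to 0.23. The other kept Khk probe had the opposite sign. Pklr, liver pyruvate kinase, differed by -0.19 (from -0.67 to 0.30). Pck1 and G6pc, named G6pc1 in RefSeq, which act in glucose synthesis, differed by -0.13 (from -0.65 to 0.40) and -0.29 (from -0.84 to 0.25). Fgf21, a hormone of the fasted and sugar-fed liver, differed by -0.67 (from -1.48 to 0.14). Besides Pc, the members called lower included Pdk1, a kinase that switches off pyruvate dehydrogenase, at -0.56 ± 0.19 (limma adjusted p = 0.038, with the call lost without any 1 of 7 rats). The intervals of Fasn, Acly and Scd1 include changes of 0.5 in at least 1 direction, so the 12 arrays could not resolve a change of that size in them.

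Other bright genes of the stricter rule fell without belonging to a list. Klhl25, an adaptor of a ubiquitin ligase, lay between 1.98 and 2.57 (median 2.48) on 30% sucrose and between 2.88 and 3.35 (median 3.26) on 10% sucrose. It differed by -0.81 ± 0.21 (limma adjusted p = 0.0082), and by -0.75 under the slide block. Abhd14a, a hydrolase-fold protein, and RGD1310686, named Cdip1 in RefSeq, each differed by -0.53 ± 0.15 without overlap (limma adjusted p = 0.012 and 0.013). Pald, named Pald1 in RefSeq, differed by -0.47 ± 0.14 (limma adjusted p = 0.018), and by -0.50 under the slide block. Of 14 genes that fall in the acute phase response, 1 was called lower (7.14%) and 0 higher, against 2.48 and 18.4% of all genes. All 14 were bright, and 3.97% of bright genes were called lower. The list median was -0.03. The gene called was Serpina6, the carrier of corticosteroids in blood. It differed by -0.60 ± 0.17 (limma adjusted p = 0.013), and by -0.65 under the slide block. Mt1a, named Mt1 in RefSeq, a metallothionein that binds copper and zinc, differed by -0.47 (95% interval from -1.37 to 0.42), with rat 5 of the 30% sucrose diet apart at 8.25. Hamp, the iron hormone hepcidin, differed by 0.13 (from -0.44 to 0.71).

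Immediate early genes respond within minutes to growth factors or stress, and 8 of the 25 measured were bright. Of the 25, 6 were called higher (24%) and 0 lower, against 18.4% of all genes and 26% of genes that are not bright called higher, so that the share was near the background. The list had a median of 0.57, or 0.54 under the slide block. None of the 6 was bright. The count was 4 to 6 without single rats, and 2 after quantile normalization or in the authors' table. Klf6, a zinc finger factor, ranged from -1.51 to 0.71 on 30% sucrose and from -2.57 to -1.67 on 10% sucrose, and differed by 1.34 ± 0.38 (limma adjusted p = 0.016), or 1.72 under the slide block. Btg2, an antiproliferative factor, differed by 1.28 ± 0.45 without overlap (limma adjusted p = 0.044, with the call lost without any 1 of 10 rats). Gadd45b differed by 0.79 ± 0.26 (limma adjusted p = 0.036, with the call lost without any 1 of 7 rats). Il1rn, the interleukin 1 receptor antagonist, differed by 0.80 ± 0.27 (limma adjusted p = 0.039), and its call was lost without any 1 of 8 rats. Of 30 genes of the unfolded protein response, 2 were called higher (6.67%) and 0 lower, against 18.4 and 2.48% of all genes. Of its 18 bright members 0 were called, and the list median was 0.02. Asns, asparagine synthetase, was called but was not bright. It ranged from -3.73 to -1.08 on 30% sucrose and from -4.14 to -3.31 on 10% sucrose. Asns differed by 1.40 ± 0.48 (limma adjusted p = 0.039), and its call was lost without any 1 of 9 rats.

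Some erythroid genes were called higher on 30% sucrose, none of them bright. Of 11 measured, 5 were called higher (45.5%) and 0 lower, against 18.4% of all genes, 26% of genes that are not bright and 38.2% of the dimmest class called higher. Of the 3 bright members 0 were called, against 2.73% higher and 3.97% lower among bright genes. A difference below 0 was found in 2 of the 11. The median was 1.02, or 0.92 under the slide block. The count was 8 without rat 6 of the 30% sucrose diet and 4 to 6 without each of the others, 3 after quantile or normexp processing and 2 in the authors' table. Rhd, a blood group protein of red cells, ranged from -3.47 to -1.60 on 30% sucrose and from -4.48 to -3.73 on 10% sucrose, and differed by 1.32 ± 0.26 (limma adjusted p = 0.0018), or 1.10 under the slide block. Alas2, the first enzyme of heme synthesis in red cells, differed by 1.58 ± 0.56 (limma adjusted p = 0.047), and its call was lost without any 1 of 9 rats. Lymphocyte and macrophage lists had medians of 0.52 and 0.38, which became -0.27 and -0.11 under the slide block. The same-diet slide differences of these lists were 0.90 and 0.81. In the endothelial list the median went from 0.08 to -0.44.

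**Figure D3:**
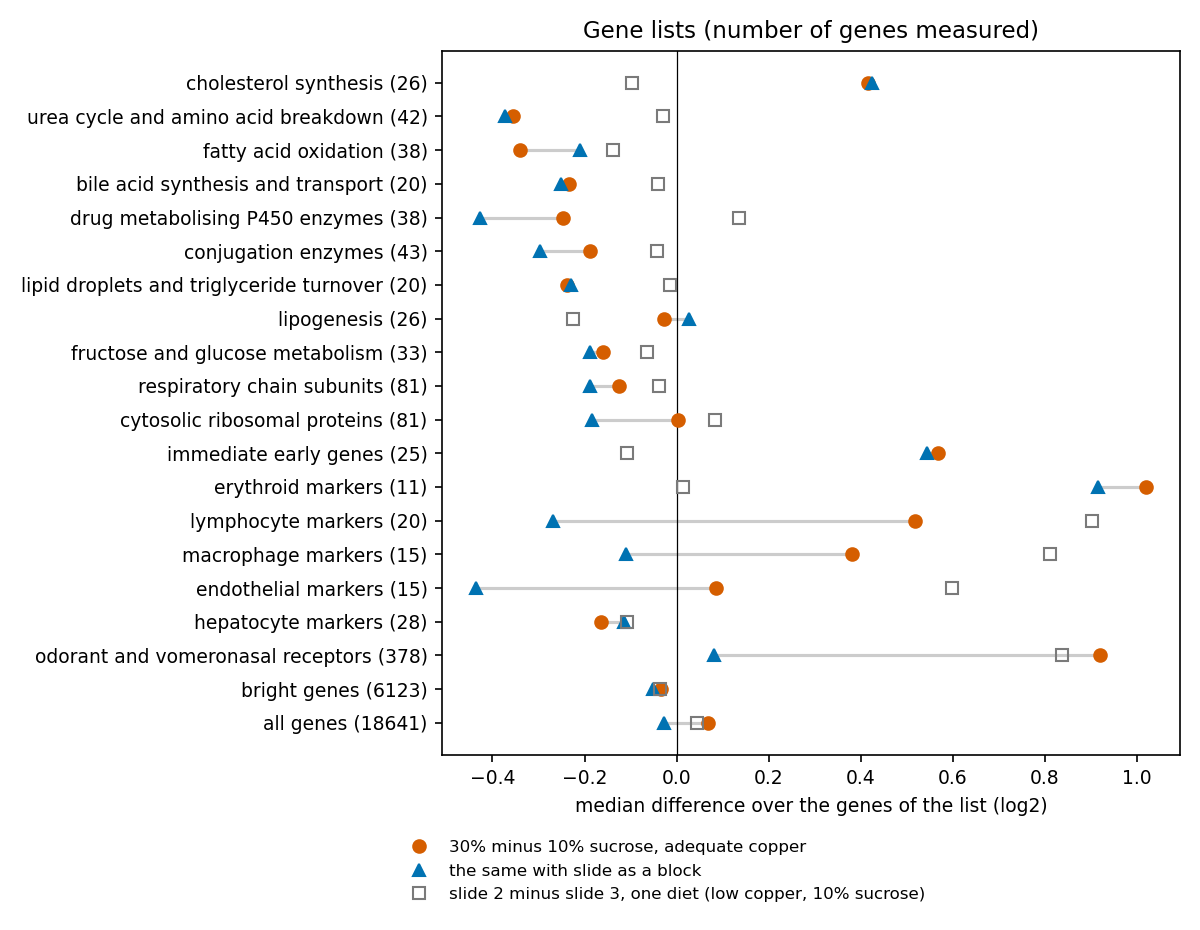
Median difference over the measured genes of 18 lists, the bright genes and all genes (log2): 30% minus 10% sucrose at adequate copper (circles), the same under the slide block (triangles) and slide 2 minus slide 3 within the low copper 10% sucrose diet (squares). Cholesterol synthesis stays at 0.42 and amino acid breakdown at -0.36 and -0.37, while odorant receptors move from 0.92 to 0.08.

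The sucrose difference was set against that at low copper, where rats on 30% and 10% sucrose ate less than 0.3 mg/kg of copper. At low copper 0 of 18641 genes were called in limma for 30% against 10% sucrose, and 1786 had an unadjusted p under 0.05. The difference between the sucrose differences passed the threshold for 3884 genes (20.8%) in limma, and for 10 genes when slide was a block. Each value of this comparison again rests on arrays of different slides. Acot12 differed by -0.77 at adequate copper and by 0.04 at low copper (limma adjusted p of the difference between them = 0.011). The corresponding values for Haao were -0.72 and 0.12 (0.018), for Nags -0.57 and 0.15 (0.014), and for Glud1 -0.45 and 0.11 (0.020). Slc25a13 gave -0.53 and 0.14 (limma adjusted p = 0.0057), and Mfn2 gave -0.47 and 0.02 (0.014).

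Among the sterol genes, Sqle differed by 1.17 at adequate and by -0.47 at low copper (limma adjusted p of the difference between them = 0.040), and Idi1 by 0.85 and -0.24 (0.046). Oat differed by -0.87 and -0.28 (limma adjusted p = 0.20), and Cyp8b1 by -1.35 and -0.09 (limma adjusted p = 0.083). With slide as a block no difference between copper levels of a gene named here passed the threshold, and the adjusted p was at least 0.23.

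**Figure D4:**
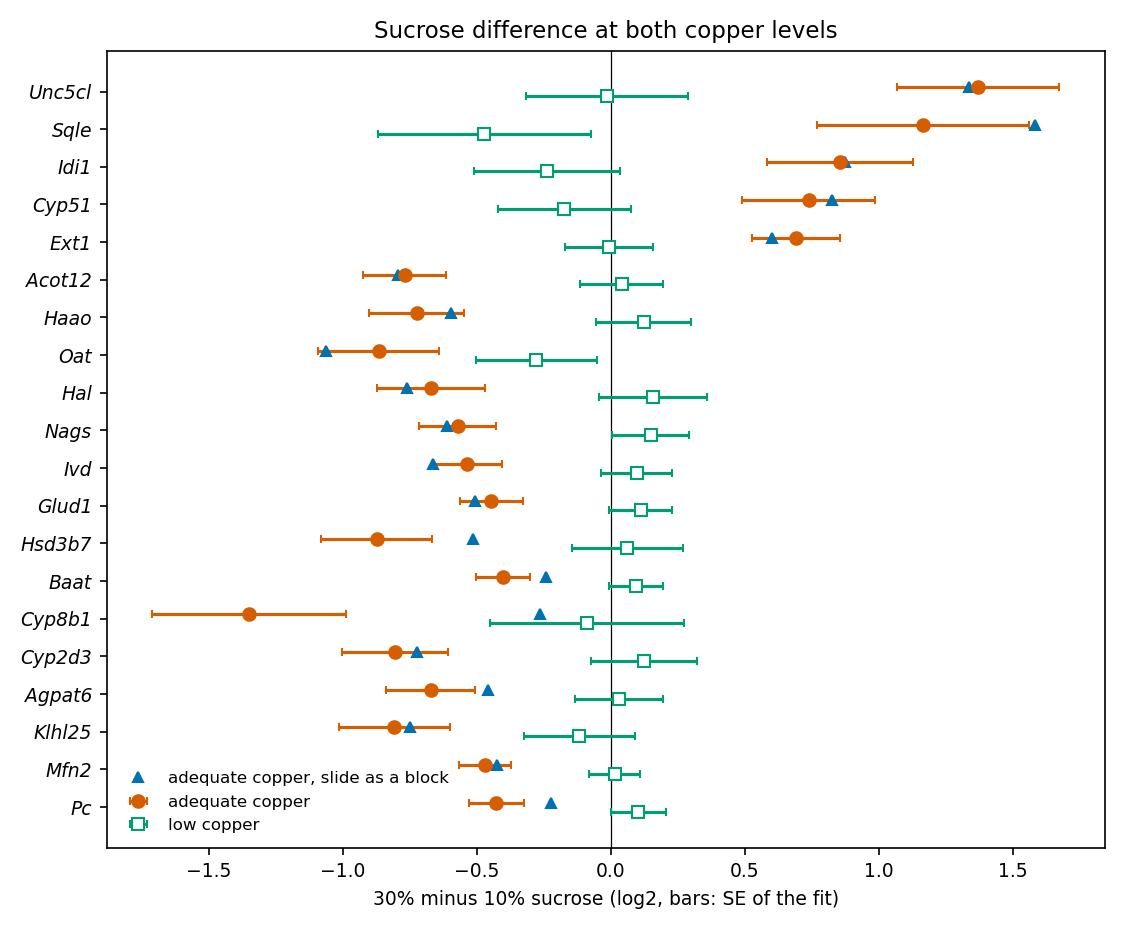
Difference between 30% and 10% sucrose for 20 genes (log2) at adequate copper (filled circles) and at low copper (open squares), with bars for the SE of the fit, and at adequate copper under the slide block (triangles). Acot12 lies at -0.77 at adequate and 0.04 at low copper, and Cyp8b1 moves from -1.35 to -0.26 under the slide block.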

How the data were processed

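Arrays of the livers of 24 rats were used, 12 of them in the comparison, with diets taken from the labels. Agilent Feature Extraction 10.7.3.1 read the spots, per the file headers, and probe positions are given on rn4. The processed signal that the authors deposited is a linear intensity. It had its background removed within each array and was not scaled between arrays. The authors' score table, scaled between arrays, was used as an alternative. Its values were multiplied by 662 and raised by 80.4 to follow the background-subtracted signal, which is an assumption. The deposited spot marks are of the unit other and served as marks.

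Of 62976 spots, 4259 controls were left out, as were spots marked non-uniform or outlying (0.652%), unless all spots of a probe were marked. Each spot's log2 processed signal was set against the 75th percentile of its array, and the mean over spots gave 30367 probes. Probes well above background on at least 6 arrays were kept (21179), and the brightest stood for each name (18641 genes, 11280 with a RefSeq symbol). Saturation was found in 1 probe without a gene symbol, on 1 array (rat 6 of the low copper 10% sucrose diet). Some genes are not reported here. Exon and UTR positions of probes were not analysed here.

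The fit used limma 3.58.1 (R 4.3.3) over all 24 arrays with a mean per diet, two-sided, with Benjamini-Hochberg adjustment over all genes at 0.05. A difference is 30% minus 10% sucrose in log2 units, and ± is its SE. Lists were described by counts and medians without a set test. Drawings used matplotlib 3.10.9. Genes were named as the 12 largest rises and 12 largest falls of the stricter rule, the members of each list with the smallest p (4 at most), and fixed genes, and the text describes a selection of the 183 names. Acat3, Mvd, Oat, Glud1, Kmo, Gls2, Gpt, Gnmt, Bhmt, Cyp2d2, Cyp2c6v1, Il1rn, Btg2, Alas2, Tdo2, Kynu, Uroc1, Bckdha, Bckdhb and Bcat2 fall outside this rule for their lists and were chosen after their values were seen. The members and lists were chosen with earlier results of these data known. Replicate numbers did not pair rats (correlations of deviations from -0.14 to 0.16). On simulated data with 200 of 18641 genes changed, this fit found 19.4, 71.6 and 100% of changes of 0.5, 1 and 2. False calls numbered 5. Under the slide block the shares were 0, 20.9 and 84.8%, and false calls numbered 4. The simulated arrays were given no slide difference. Their false calls therefore say nothing of those that slide may give in the rat arrays, where diet and slide cannot be told apart.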

Additional observations from a re-analysis of the deposited data

Results flagged for a closer look

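In 10 of 154 sets of 6 rats examined for the genes named, 1 rat stood apart from the other 5 of its diet by Dixon's test, which flags about 1 set in 20 by chance. Rat 2 of the 10% sucrose diet (slide 3) stood apart in Acox2 (highest, 3.37). Rat 4 of the 10% sucrose diet (slide 3) stood apart in Scd1 (highest, 8.51). Rat 1 of the 30% sucrose diet (slide 1) stood apart in Fasn (highest, 6.46). Rat 5 of the 30% sucrose diet (slide 2) stood apart in RGD1310686 (lowest, 1.49), Kynu (lowest, 2.63), Pdk1 (lowest, -2.04), Il1rn (highest, 3.0) and Mt1a (highest, 8.25). Rat 6 of the 30% sucrose diet (slide 2) stood apart in Ext1 (highest, 1.39) and Klf6 (highest, 0.71).

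The sucrose difference differed between copper levels in limma (adjusted p under 0.05) for 33 of the 77 genes named, against 20.8% of all genes. Most of these genes were chosen for their difference at adequate copper, which is part of this comparison, so nothing is read from the larger share. The difference at adequate copper minus that at low copper, in log2 units, was below 0 for Mgll (-0.96), Hsd3b7 (-0.94), Cyp2d3 (-0.93), Serpina6 (-0.87), Haao (-0.85), Hal (-0.83), Acot12 (-0.81), Pdk1 (-0.76), Bdh1 (-0.74), Nags (-0.72), Agpat6 (-0.70), Slc25a13 (-0.67), Abhd14a (-0.66), Cyp2d4 (-0.66), Ivd (-0.63), RGD1310686 (-0.60), Glud1 (-0.56), Kmo (-0.53), Pc (-0.53), Baat (-0.50), Mfn2 (-0.48) and Gls2 (-0.48). It was above 0 for Bcat2 (0.58), Ext1 (0.70), Idi1 (1.09), Gal3st4 (1.16), Itgam (1.21), Gadd45b (1.35), Unc5cl (1.39), Rhd (1.40), Klf6 (1.53), Sqle (1.64) and Igfbp1 (1.84). The adjusted p of these lay between 0.0057 and 0.049. With slide as a block their adjusted p was at least 0.23.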

How the results depend on the processing

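The counts of genes called higher, lower, bright and higher, and bright and lower were 3426, 462, 167 and 243. They were 0 for all of these with slide as a fixed block, also after quantile normalization with that block (chosen after seeing the data, as was the interaction with the block). In these fits the diet difference rests on 2 low copper rats on slide 3. The cause of the 0 counts was not tested. With only the 30% sucrose rats on slide 1 they were 381, 6, 6 and 1, on fewer arrays, and with only those on slide 2 the bright genes higher were 92. Requiring a change of at least 1.5 times left 10, 0, 0 and 0. Genes higher were 1960 with normexp, 1615 with quantile normalization, 1546 in the authors' table, and 1900 where only probes well above background on all arrays were kept, which tests fewer genes. Genes lower were 882 with quantile normalization, 817 with the median of detected probes at 0, 908 in the authors' table and 923 with array weights. Bright genes lower were 138, 434 and 524 with quantile normalization, the median and array weights. The share of bright calls that were higher was 40.7%, against 55.9% with quantile normalization and 22.5% with the median. The cause was not tested for these. Leaving out single rats gave 2703 to 3318, 230 to 705, 92 to 181 and 121 to 331. The number of genes lower was 267, 705 and 230 without rats 1, 2 and 5 of the 30% sucrose diet, and 274 and 256 without rats 1 and 2 of the 10% sucrose diet. With the replicate number as a block the counts were 3521, 342, 158 and 175. The numbers do not pair rats, and 1 of 6 rats on 30% sucrose correlated best with its own number.

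No gene named here that passed the threshold reversed. Of the genes that were not called, some reversed. With slide as a fixed block Srebf1 was 0.12, Mlxipl 0.31, Acly -0.0021, Pck1 0.42, Fgf21 0.38 and Igf1 0.098. With only slide 1 rats Scd1 was 0.44, Srebf1 0.22, Mlxipl 0.11, Pklr 0.30, Khk 0.26, G6pc 0.015, Cyp7a1 -0.73 and Igf1 0.14. With quantile normalization and the slide block Scd1 was 0.14, Srebf1 0.19, Mlxipl 0.29, Pck1 0.50, Fgf21 0.36, Cpt1a 0.081, Kynu 0.057 and Igf1 0.14. With array weights Pck1 was 0.020. Without single rats Mlxipl ran from -0.10 to 0.043 (0.0055 and 0.043 without rat 3 of the 30 and of the 10% sucrose diet), Scd1 from -0.47 to 0.14 (0.14 without rat 5 of the 30% sucrose diet) and Khk from -0.15 to 0.0095 (0.0095 without rat 6 of that diet). The cause was not tested. Over all genes named and all alternatives, values kept direction and side of the threshold in 1669 cases, lost the threshold in 534, newly passed it in 1 and reversed in 27. List medians moved by less than the spread between rats in 1034 of their cases and by more in 39. Signal over background limits the dim genes, and changes under 1 log2 unit were often missed on simulated data.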
